A study of Mus musculus with 48 samples.

Results

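Ovariectomy removes the main source of estradiol and progesterone in a female. Both hormones act largely through nuclear receptors that bind DNA and switch genes on or off, and these receptors are present in many neurons of the brain. The medial prefrontal cortex (mPFC) takes part in the regulation of emotion, and it responds to stress and carries receptors for both ovarian and adrenal steroids. The comparison described here is between stressed mice with and without ovaries: 6 mPFC arrays of OVX+stress mice and 6 of stress mice, 12 of the 48 arrays in the series. The members were taken by their sample titles. The question is which transcripts of the mPFC differed with the loss of the ovaries in mice that all went through the same stress.

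All 12 animals were female C57BL/6J mice 17 weeks of age. The OVX+stress mice had both ovaries removed, whereas the stress mice had a sham operation. All of them then lived under chronic ultra-mild stress, a weekly program of mild stressors such as a tilted, small or soiled cage and changes of light, in place of undisturbed housing. The mPFC was cut from coronal slices, so each RNA sample holds a mixture of neurons, glia and vessels. One mouse gave 1 array, hence n = 6 mice in each group. The series also has mPFC arrays of 6 ovariectomized (OVX) and 6 sham-operated control mice without stress, and blood arrays of the same 4 groups. The ovariectomy leaves the adrenal gland and the steroid synthesis within the brain in place.

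RNA was labelled with 1 dye and hybridised to Agilent mouse arrays with 8 arrays on a slide. A level is given as log2 of the processed signal minus the 75th percentile of its array, so that 0 is the level of a fairly bright probe. This 75th percentile lay between 572 and 638 intensity units over the 12 arrays, between 32374 and 36518 probes were well above background, and no spot was saturated. After probes that were not well above background on each of the 12 arrays were left out, 29866 probes remained. A probe is called different where limma's Benjamini-Hochberg adjusted p is under 0.05, and a difference is always OVX+stress minus stress. Of the 6 stress arrays, 2 were on slide 1 and 4 on slide 2, while all 6 OVX+stress arrays were on slide 3. The groups share no slide, so within these 12 arrays the ovariectomy and the slide cannot be told apart. OVX mice without stress were on slides 2 (4 mice) and 3 (2 mice), which gives a measure of how the slides differ that uses none of the 12 arrays, and it is printed beside the results.

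Marker genes of the cortex and of a neighbouring region were read beside the tissue label. All 38 markers of cortical layers and projection neurons were measured, and their mean level lay between 2.36 and 2.48 in stress mice and between 2.43 and 2.58 in OVX+stress mice. None of the 38 was called, 22 were higher and 16 lower, and their median difference was 0.04. Markers of the nearby striatum had a mean level of 0.39 to 0.52 in stress mice and 0.39 to 0.64 in OVX+stress mice. Levels of different probes are not on a common scale and no other brain region was measured, so these readings do not test the label.

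Ovariectomy under stress went with few called differences. Of the 29866 probes, 374 were called (1.25%), 168 higher (0.563%) and 206 lower (0.690%) in OVX+stress mice. At an unadjusted p under 0.05 there were 4226 probes (14.1%). The differences were small. The median over all tested probes was 0.02, the median standard error 0.09, and the smallest called difference 0.24 in size. A change of more than 1 on the log2 scale was found for 27 called probes. The last called probe had an adjusted p of 0.0498 and the next 0.0501. For 318 of the 374 called probes the 6 OVX+stress values and the 6 stress values did not overlap, as was the case for 2.58% of all probes tested.

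**Figure D1:**
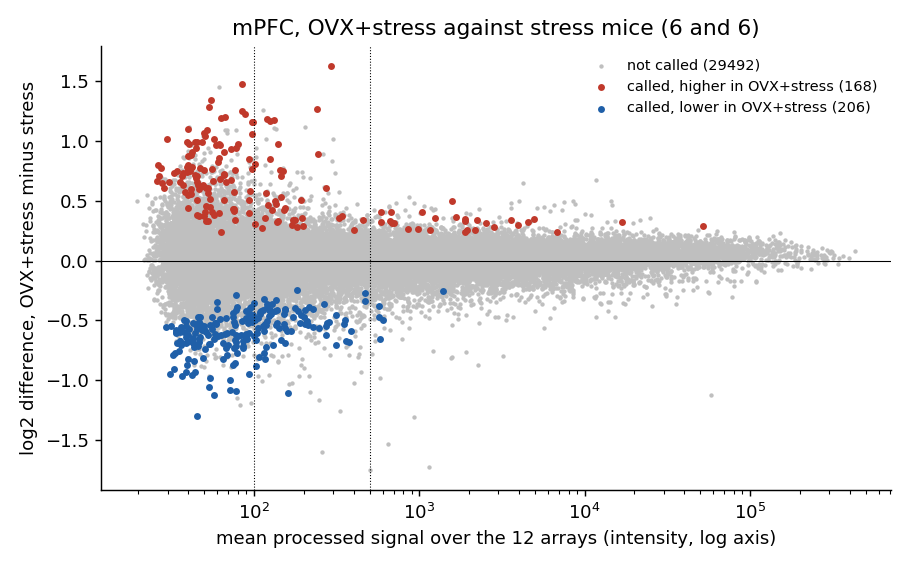
Difference between OVX+stress and stress mice on the log2 scale (vertical axis) against the mean processed signal of the probe (horizontal log axis, intensity units) for the 29866 tested probes, with called probes in colour. Most called probes lie at low signal, where differences are wider. Above a signal of 500, 28 of 33 called probes lie above 0, as do 62.4% of all tested probes of that signal.

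The called probes were dim. Their median signal was 77.8 against 490 for all tested probes. Below a signal of 100, 229 of 6910 probes were called (3.31%). Between 100 and 500 there were 112 of 8095 (1.38%), and from 500 up 33 of 14861 (0.222%). Direction changed with brightness too: 28 of the 33 bright called probes were higher in OVX+stress mice, whereas 126 of the 229 dimmest were lower. Among all tested probes, 62.4% of those from 500 up were higher, and 3239 of the 6910 below 100 were lower. From 500 up, 8.06% were higher and 2.50% lower at an unadjusted p under 0.05 (limma). Probes to long intergenic non-coding RNA (lincRNA) regions made up 175 of the 374 called probes (46.8%) and 17.5% of those tested. A gene symbol was given for 155 called probes, which stand for 152 genes, 87 probes higher and 68 lower.

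The called differences also ran with the slide. In OVX mice without stress, 356 of the 374 called probes (95.2%) had the same sign in slide 3 minus slide 2 as in OVX+stress minus stress, compared with 56.1% of all tested probes. The share was 226 of 229 below a signal of 100 and 103 of 112 between 100 and 500. It was 27 of 33 from 500 up. When slide entered a fit of all 24 mPFC arrays as a block, no probe was called (1641 at an unadjusted p under 0.05), and 190 of the 374 kept their sign (50.8%, against 66.4% of all tested). Of the 33 bright called probes, 31 kept it, against 69.6% of all probes of that brightness. By the layout of the slides, the block estimate is OVX+stress minus the stress arrays of slide 2, less slide 3 minus slide 2 in OVX mice. The block value and the slide value printed for a gene are thus not separate checks. The block estimate also reuses the 6 OVX+stress arrays and the 4 stress arrays of slide 2, from which the probes were called. Kept signs among called probes follow in part from that selection. The part of the slide in these differences was not tested further.

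**Figure D2:**
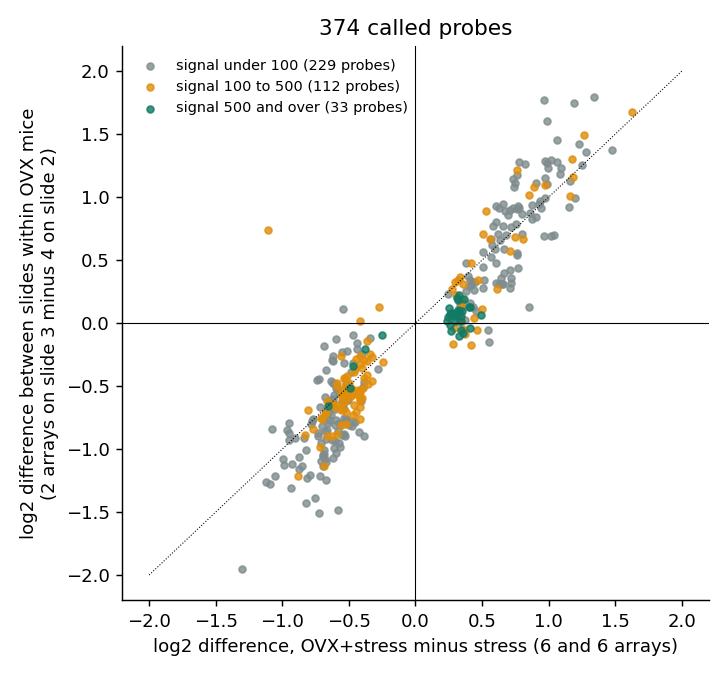
Each point is 1 of the 374 called probes, coloured by its signal, with OVX+stress minus stress on the horizontal axis and slide 3 minus slide 2 in unstressed OVX mice on the vertical axis (both log2), and a dotted line where the values are equal. Probes under a signal of 100 lie along that line and 226 of 229 share its sign, whereas most of the 33 probes from 500 up lie close to 0 on the vertical axis.

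Among genes read by a bright probe (a mean signal of at least 500, a set chosen after the values were seen), 27 probes to 25 genes were called, 24 higher and 3 lower in OVX+stress mice. Of all tested probes of that brightness, 62.4% were higher. The called rises were between 0.24 and 0.49. With slide as a block, 26 of the 27 kept their sign, and 15 of these had an unadjusted p under 0.05 in that fit. The block fit reuses arrays from which these probes were called, so both counts are in part built in. In the mice without stress, OVX minus control had the same sign for 26 of the 27 (96.3%), compared with 69.8% of all probes of that brightness; no array is common to these comparisons, although they also differ in slide. For 26 of the 27 the groups did not overlap (2.04% of all probes of that brightness), so leaving out 1 mouse could not turn their sign. The remaining probe kept its sign too. With 1 mouse left out, the number of the 27 still called ranged from 5, without stress mouse 5, to 21, without stress mouse 2.

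Fndc10 encodes a membrane protein with a fibronectin type III domain, and both of its probes rose. The brighter one (mm9 chr4:155070531-155070590) read 2.59 at the lowest, 2.85 at the median and 3.01 at the highest in stress mice. In OVX+stress mice these values were 3.09, 3.17 and 3.23, so the groups did not overlap. The difference was 0.34 ± 0.07 (SE; 1.27-fold, adjusted p = 0.0270, limma), and it was 0.32 ± 0.11 with slide as a block and 0.02 between the slides in OVX mice. Its other probe, which overlaps the first, gave 0.32 ± 0.06. The slide difference rests on 2 OVX arrays of slide 3 and 4 of slide 2, and the part of the slide in this rise was not tested.

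Odf2, known for the outer dense fibres of sperm tails and the appendages of centrioles, rose by 0.34 ± 0.06 (1.26-fold, adjusted p = 0.0200). Its levels ran from 2.18 through a median of 2.39 to 2.47 in stress mice and from 2.60 through 2.69 to 2.84 in OVX+stress mice. All OVX+stress mice lay above all stress mice, and the probe (chr2:29778000-29778059) was called whichever of the 12 mice was left out. The block for slide left 0.37 ± 0.13, and the slides differed by −0.05 in OVX mice. A second Odf2 probe gave 0.03, so the rise was seen by 1 of 2 probes.

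Klhdc9, a kelch domain gene (chr1:173288871-173288930), had the largest rise among bright probes. Stress mice read between 0.67 and 1.31 (median 1.14), and OVX+stress mice between 1.46 and 1.78 (median 1.57). With no overlap between the groups, the difference was 0.49 ± 0.10 (1.41-fold, adjusted p = 0.0370), and 0.37 ± 0.17 with slide as a block.

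Chpf2 takes part in building chondroitin sulfate chains, which coat many neurons of the cortex. One of its probes (chr5:24097719-24097778) read 0.58, 0.87 and 0.92 at the lowest, median and highest of the stress mice, and 1.07, 1.18 and 1.30 in OVX+stress mice. The groups were apart, and the rise was 0.36 ± 0.07 (adjusted p = 0.0312), or 0.40 ± 0.15 with the slide block. Of the other 2 Chpf2 probes, 1 read 0.33 and 1 read −0.07, neither called.

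Cdk10 encodes a cyclin-dependent kinase. Its levels (chr8:125755928-125755987) were 2.46 to 2.61 in stress mice, with a median of 2.50, and 2.74 to 2.97 in OVX+stress mice, with a median of 2.81. This rise of 0.29 ± 0.05 (adjusted p = 0.0205) came with 0.24 for its second probe, which was not called, and with 0.25 ± 0.09 under the slide block. Unstressed OVX mice were above controls by 0.33 on the same probe. The levels of the 2 groups again did not touch.

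**Figure D3:**
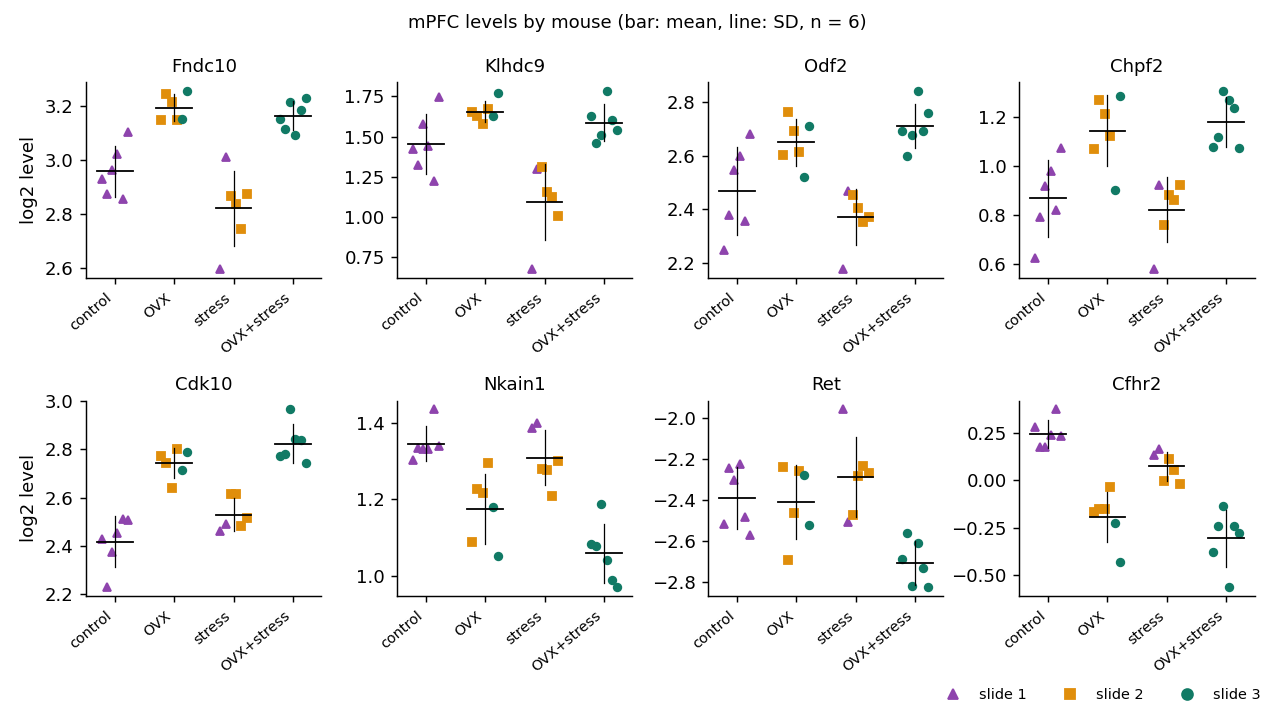
Log2 level (signal relative to the 75th percentile of the array) of 8 genes in each mouse of the 4 mPFC groups, with the slide given by colour and shape, a bar at the group mean and a line for the SD (n = 6). In the panels of Fndc10, Klhdc9, Odf2, Chpf2 and Cdk10 all 6 OVX+stress mice lie above all 6 stress mice, and in those of Nkain1, Ret and Cfhr2 all lie below.

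The other bright genes that rose have varied roles. Commd5 is a COMM domain gene and rose by 0.28 ± 0.06, with stress mice between 2.01 and 2.15 and OVX+stress mice between 2.15 and 2.44, the lowest of them just above the highest stress mouse. Dcp1b, a cofactor of mRNA decapping, rose by 0.24 ± 0.05, the smallest called difference. Atrip, the partner of the DNA damage kinase ATR, rose by 0.26 ± 0.06, but it was not called in any of the 12 fits that left out 1 mouse. Mau2 helps to load cohesin onto DNA and rose by 0.33 ± 0.06. Phf7, a PHD finger gene known from the male germ line, also rose by 0.33 (SE 0.07), and it was 0.42 ± 0.13 higher with slide as a block. Both probes of D11Wsu47e were called, at 0.32 and 0.26. Zfp787 was called by 1 of 3 probes (0.40 ± 0.09), and its groups overlapped.

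Of the 3 bright genes that were lower, Nkain1 encodes a membrane protein that binds the beta subunit of the sodium pump. It fell by 0.25 on the log2 scale (SE 0.05, 1.19-fold, adjusted p = 0.0448), from a range of 1.21 to 1.40 in stress mice to one of 0.97 to 1.19 in OVX+stress mice, and the block for slide left −0.12 ± 0.08. Cfhr2, a gene of the complement factor H family, read −0.02 to 0.16 in stress mice and −0.57 to −0.13 in OVX+stress mice, a difference of −0.38 ± 0.07 (adjusted p = 0.0239) that was −0.14 ± 0.11 under the slide block. Ptchd4, a patched domain gene, was −0.49 ± 0.08 lower (adjusted p = 0.00854). This was the 1 bright gene that turned with the slide block, to 0.10 ± 0.14, and the slides differed by −0.51 in OVX mice on this probe. Its second probe gave 0.11.

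All 27 called probes that differed by more than 1 lay below a signal of 500. Non-coding RNAs were among them. The probes of 7 non-coding RNAs that were called are shown because their readings are described next and because the lincRNA regions have no gene symbol. Each probe is 60 bases long and is written 5′ to 3′ in lower case, as the array file lists it, with its mm9 position and strand.
chr1:134867906-134885481_F (probe chr1:134885227-134885286, plus strand): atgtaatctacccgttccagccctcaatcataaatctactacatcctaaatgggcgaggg
HOTAIR (probe chr15:102774847-102774906, minus strand): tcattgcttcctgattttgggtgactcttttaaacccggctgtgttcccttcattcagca
chr15:8463685-8494960_F (probe chr15:8479418-8479477, plus strand): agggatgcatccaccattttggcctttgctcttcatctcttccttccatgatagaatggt
Terc (probe chr3:96218697-96218756, minus strand): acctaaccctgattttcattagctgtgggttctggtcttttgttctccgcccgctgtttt
chr2:167388900-167402475_F (probe chr2:167400838-167400897, plus strand): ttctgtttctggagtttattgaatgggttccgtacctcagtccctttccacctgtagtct
chr17:87483814-87493039_F (probe chr17:87490164-87490223, plus strand): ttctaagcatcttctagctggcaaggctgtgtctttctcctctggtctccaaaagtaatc
chr13:22110479-22116629_R (probe chr13:22114226-22114285, minus strand): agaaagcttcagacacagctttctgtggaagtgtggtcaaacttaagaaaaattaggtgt

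The lincRNA region chr1:134867906-134885481 had the largest rise of all, 1.62 ± 0.33 (adjusted p = 0.0333). Stress mice read −2.83 at the lowest, −2.53 at the median and −0.90 at the highest, against −0.98, −0.64 and 0.24 in OVX+stress mice. Thus 1 OVX+stress mouse lay below the highest stress mouse. The slides differed by 1.68 in OVX mice, and the slide block left 0.44 ± 0.38. The region chr15:8463685-8494960 rose by 1.28 ± 0.27, where the slides differed by 1.36 and the block left 0.21 ± 0.34.

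HOTAIR is transcribed from the HoxC cluster and is known from posterior tissues. Its levels were −4.41, −4.08 and −2.99 in stress mice (lowest, median, highest) and −2.77, −2.34 and −1.93 in OVX+stress mice, with no overlap. The rise was 1.47 ± 0.26 (2.78-fold, adjusted p = 0.0180) at a mean signal of 84.9. In OVX mice the slides differed by 1.37, and with slide as a block 0.50 ± 0.29 remained. Terc, the RNA template of telomerase, went from −4.59 to −3.71 (median −4.45) in stress mice to −3.39 to −3.11 (median −3.28) in OVX+stress mice. Its rise of 0.99 ± 0.16 met a slide difference of 1.27 in OVX mice and was −0.02 ± 0.20 with the block.

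Falls of lincRNA regions were of like size. The region chr2:167388900-167402475 read −3.76 to −2.83 in stress mice and −4.85 to −4.21 in OVX+stress mice, a difference of −1.30 ± 0.15 (adjusted p = 0.00152), and with the slide block it read 0.48 ± 0.29. The region chr17:87483814-87493039 was lower by −1.12 ± 0.12, and the block left −0.01 ± 0.15. Both had a slide difference in OVX mice of the same sign, −1.95 and −1.26. The region chr13:22110479-22116629 went the other way on the slides. It read −1.82, −1.46 and −1.27 in stress mice and −3.23, −2.85 and −1.77 in OVX+stress mice, so the groups overlapped by 1 mouse, and the difference of −1.11 ± 0.24 (adjusted p = 0.0434) stood against a slide difference of 0.74 in OVX mice. The slide block made it −1.80 ± 0.40.

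Protein-coding genes on dim probes showed the same pattern. Slc36a1, a proton-coupled amino acid transporter, read −3.41, −3.23 and −2.52 at the lowest, median and highest of the stress mice and −2.13, −1.90 and −1.68 in OVX+stress mice. The groups were apart by 1.18 ± 0.15 (2.27-fold, adjusted p = 0.00327), the slides by 1.16 in OVX mice, and the slide block left 0.26 ± 0.17. Its second tested probe read −0.23, in the opposite direction and not called. Arl9, a small GTPase of the ADP-ribosylation factor family, rose by 1.27 ± 0.17 (adjusted p = 0.00433), from a median of −2.06 to one of −0.86 with no overlap, and was −0.08 ± 0.27 with slide as a block. Gpha2, a glycoprotein hormone subunit, rose by 1.16 ± 0.19, and Pkd1l3, a polycystin-like protein known from taste cells, by 0.97 ± 0.19, and both slide differences in OVX mice were as large, 1.13 and 1.15.

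Among the falls, Fev, the transcription factor that specifies serotonin neurons, had the smallest adjusted p of the genes named. Stress mice lay between −3.37 and −3.22 and OVX+stress mice between −4.21 and −3.98, a difference of −0.81 ± 0.05 (1.76-fold, adjusted p = 6.71e-05) with wide separation of the groups. The slides differed by −1.23 in OVX mice, and the fit with the slide block gave Fev 0.39 ± 0.15, the opposite sign. Glp2r, the receptor of glucagon-like peptide 2, was at −3.79 to −3.51 in stress mice and at −4.97 to −4.32 in OVX+stress mice (−0.96 ± 0.11, adjusted p = 0.00138), and its second probe read 0.00. The cold and menthol channel Trpm8 differed by −0.88 ± 0.10, Robo3, a receptor in axon guidance, by −0.75 ± 0.13, and Lasp1, an actin-binding protein, by −0.93 ± 0.19. With slide as a block these 3 read 0.29, 0.59 and 0.45, all turned in sign. Olfactory receptor genes, which are odour sensors of the nose, were called in 13 of 75 tested (6 higher, 7 lower), at a median signal of 63.4 for the 75. Of all tested probes 1.25% were called, and 3.31% of those below a signal of 100. Each of the 13 had the sign of the slide difference in OVX mice, as did 54 of all 75.

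**Figure D4:**
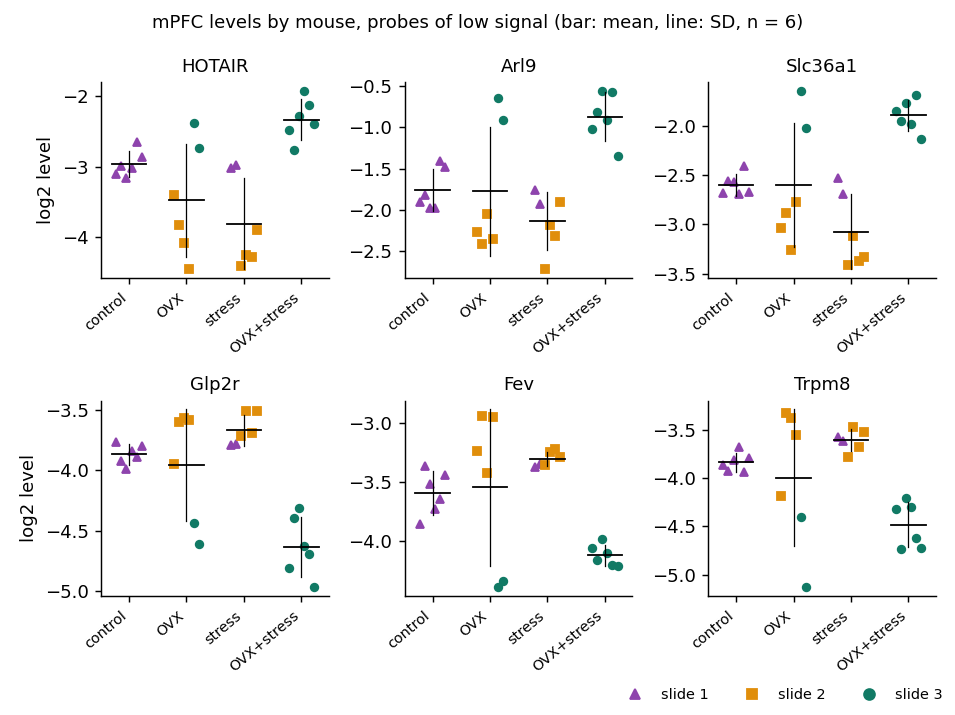
Log2 level of 6 genes read by dim probes in each mouse of the 4 mPFC groups, with the slide given by colour and shape, a bar at the group mean and a line for the SD (n = 6). The 2 OVX mice on slide 3 lie above the 4 on slide 2 for HOTAIR, Arl9 and Slc36a1 and below them for Glp2r, Fev and Trpm8, on the same side as the OVX+stress mice of that slide.

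Next, the genes through which ovarian hormones act were read. A list of estrogen and progesterone receptors, their coregulators and estrogen-induced genes had 35 tested genes, 13 higher and 22 lower in OVX+stress mice, with a median of −0.05, or −0.01 with slide as a block (0.03 for all tested genes with a symbol). Ret was the 1 gene of the list that was called. The estrogen receptor alpha gene Esr1 read −2.66 to −1.76 in stress mice and −3.28 to −1.20 in OVX+stress mice, a difference of 0.03 ± 0.29. Its groups overlapped fully, and an interval of this width leaves room for changes in either direction. Esr2, encoding estrogen receptor beta, differed by 0.00 ± 0.20, and Gper1, the membrane estrogen receptor, by −0.16 ± 0.08 (adjusted p = 0.415). Pgr, the progesterone receptor gene that estradiol induces in many tissues, read 0.13 to 0.47 in stress mice and 0.33 to 0.59 in OVX+stress mice (0.13 ± 0.07, adjusted p = 0.427), and its second probe was −0.12. Oxtr, the oxytocin receptor gene, differed by −0.17 ± 0.26.

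Ret is the signalling receptor of the glial cell line-derived neurotrophic factor family and is induced by estrogen in breast cancer cells. Its levels were −2.50, −2.28 and −1.96 in stress mice (lowest, median, highest) and −2.82, −2.71 and −2.56 in OVX+stress mice. All OVX+stress mice lay below all stress mice, and Ret fell by 0.42 on the log2 scale (SE 0.09, 1.34-fold, adjusted p = 0.0440). The slides differed by 0.01 in OVX mice, and the slide block left −0.40 ± 0.18. In mice without stress, OVX minus control was −0.02, while the test of the difference between the effects gave −0.40 (adjusted p = 0.0729). Ret was called in 3 of the 12 fits that left out 1 mouse.

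Promoters were searched for the estrogen response element, GGTCANNNTGACC, which reads the same on both strands. RefSeq windows of 300 bases around gene starts (GRCm38.p6) held it exactly in 23 of 32851 (0.0700%), and with up to 1 mismatch in 288 (0.877%). None of the 75 windows of genes called higher and none of the 45 of genes called lower held it, with or without a mismatch. Such elements also lie far from gene starts, in stretches that these windows do not cover. Among the 102 windows of the genes named by rule and the bright called genes, the only match was in that of Drd2, with 1 mismatch. Drd2 was not called (0.41 ± 0.13).

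Steroids other than those of the ovary act in these cells as well. Of the steroid synthesis and metabolism list, 15 of 20 tested genes were higher and none was called, and 10 of the 20 were higher with slide as a block. Hsd11b1, which regenerates active glucocorticoid within cells, read 0.40 to 0.99 in stress mice and 0.85 to 1.41 in OVX+stress mice. The groups overlapped, with a difference of 0.43 ± 0.12 (adjusted p = 0.113) and 0.42 ± 0.22 with slide as a block. Akr1c18, which inactivates progesterone, read 0.57 ± 0.20 (adjusted p = 0.221), where the slides differed by 0.49 in OVX mice. Aromatase (Cyp19a1) was well above background on 0 stress and 3 OVX+stress arrays and was not tested. The glucocorticoid receptor gene Nr3c1 differed by 0.09 ± 0.07, the mineralocorticoid receptor gene Nr3c2 by 0.06 ± 0.15, and Fkbp5, a glucocorticoid-induced chaperone of these receptors, by −0.12 ± 0.11. In all, 13 of 33 corticosteroid receptor and target genes were higher and 20 lower, none called, with a median of −0.03. With slide as a block the direction turned, to 24 of 33 higher and a median of 0.11. Without the block and without stress mouse 2, the median was 0.0039, and 18 lay above 0.

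Across 30 gene lists with 919 tested genes, 2 genes were called, Ret and Car1, against 0.740% of all genes with a symbol (1 probe each). Car1, the carbonic anhydrase of red blood cells, fell by 0.73 on the log2 scale (SE 0.15, adjusted p = 0.0330), yet with the slide block it read −0.12 ± 0.25. The shares of members on either side of 0 are therefore given as descriptions, beside the background of 1 probe per gene with a symbol, of which 60.2% were higher, 8.90% higher at an unadjusted p under 0.05, and 3.77% lower at that p.

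Genes that neurons switch on with activity lay lower. Of 35 tested neuronal immediate early genes, 33 were lower in OVX+stress mice, 4 of them at an unadjusted p under 0.05, and none was called. Their median difference was −0.13, and −0.19 with slide as a block. Arc, whose product acts at active synapses, read 4.66 to 5.02 in stress mice (median 4.81) and 3.57 to 4.86 in OVX+stress mice (median 4.50), a difference of −0.47 ± 0.19 (adjusted p = 0.287) with overlap. Ier2 differed by −0.46 ± 0.15, Fos by −0.10 ± 0.24, and Bdnf, the neurotrophin gene, by −0.07 ± 0.14. The list rested in large part on 1 animal, since without OVX+stress mouse 5 its median was −0.05 and 21 of 35 were lower.

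**Figure D5:**
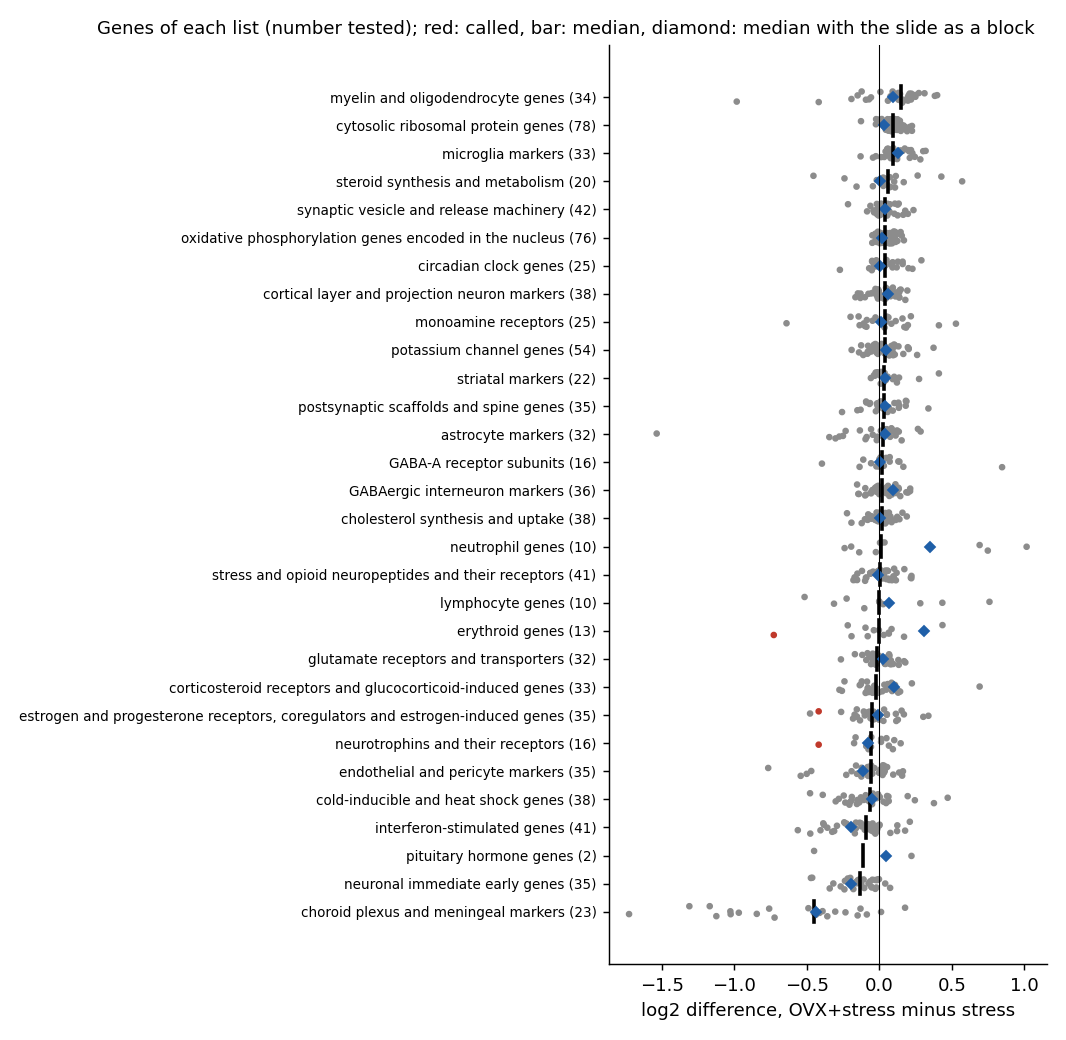
Difference between OVX+stress and stress mice (horizontal axis, log2) for each tested gene of the 30 lists, with called genes in red, a bar at the median of the list and a diamond at its median with slide as a block. The immediate early, interferon-stimulated, and choroid plexus and meningeal lists lie mostly below 0, and the ribosomal protein and microglia lists mostly above.

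Markers of choroid plexus and meninges, the tissues that line the ventricles and cover the brain, were lower in 21 of 23 tested genes, with a median of −0.45, 7 at an unadjusted p under 0.05 and none called. The mean level of the list was −1.48 to −0.24 in stress mice and −1.68 to −0.06 in OVX+stress mice. In 5 of the 6 OVX+stress mice it was at most −1.42, whereas mouse 6 had the highest value of the 12, and without it the median was −0.81. In bulk tissue, fewer cells of a type and less RNA per cell cannot be told apart. Slc13a4, a sulfate transporter of both tissues, read −1.73 (unadjusted p = 0.0296), Ptgds, the prostaglandin D synthase of meninges, −1.12, and Col1a1, a fibroblast collagen, −1.17 ± 0.45. The list's median was −0.43 with slide as a block and −0.22 for the slides in OVX mice. Within stress mice, slide 2 minus slide 1 had a median of 0.74. Without stress, the mean level of the list also spread widely, from −1.50 to −0.43 in controls and from −1.69 to −0.54 in OVX mice. The part of these cells in the other differences was not tested.

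Interferon-stimulated genes were lower in 34 of 41, with a median of −0.09 (−0.20 with slide as a block) and 8 at an unadjusted p under 0.05. Oas1a, a sensor of double-stranded RNA, read −1.58 to −0.85 in stress mice and −1.66 to −1.32 in OVX+stress mice (−0.41 ± 0.13, adjusted p = 0.161). Ifi44 differed by −0.48 ± 0.16. Of 38 cold-inducible and heat shock genes, 28 were lower, 8 at an unadjusted p under 0.05. These included the endoplasmic reticulum chaperone genes Sdf2l1 (−0.39 ± 0.12) and Hspa5 (−0.28), whereas Rbm3 and Cirbp, RNA-binding proteins induced by cold, read 0.47 and 0.38. None of these was called.

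Microglia markers were higher in 30 of 33 tested genes, with a median of 0.10 and 7 at an unadjusted p under 0.05. The slide block left a median of 0.13, and the slides in OVX mice differed by −0.05. Trem2, a lipid receptor of microglia, read 2.05 to 2.38 in stress mice and 2.20 to 2.69 in OVX+stress mice (0.32 ± 0.09, adjusted p = 0.117), and P2ry13, a purine receptor of these cells, differed by 0.25 ± 0.07 (adjusted p = 0.114). For both the groups overlapped. Ribosomal protein genes were higher in 74 of 78, with a median of 0.10 and 18 at an unadjusted p under 0.05; with slide as a block this median was 0.03. Rps15 lay at 5.80 to 6.02 in stress mice and at 6.04 to 6.35 in OVX+stress mice (0.21 ± 0.06, adjusted p = 0.139), without overlap. Myelin and oligodendrocyte genes were higher in 26 of 34, median 0.15, where the slides in OVX mice also differed by 0.13.

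For synaptic transmission the differences were small. Of 42 genes of synaptic vesicles and release, 32 were higher with a median of 0.04, among them Stx1a, a syntaxin of the presynaptic membrane (0.18 ± 0.05, adjusted p = 0.106). GABA-A receptor subunits had a median of 0.02 over 16 genes, and Gabre, which encodes the epsilon subunit, read 0.85 ± 0.19 (adjusted p = 0.0533) on a dim probe whose slide difference in OVX mice was 1.03. Glutamate receptors and transporters were at −0.01 over 32 genes, and GABAergic interneuron markers at 0.02 over 36. None was called.

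Finally, the effect of ovariectomy under stress was set against that without stress by an interaction term over the 24 mPFC arrays. Of 28849 probes, 1249 (4.33%) were called, a count that ran from 1 to 3831 when 1 mouse was left out. Of the 341 probes that were called under stress and had a value here, 65 were among them; the interaction contains the same 12 arrays, so this count is not independent. HOTAIR was −0.51 in OVX minus control and 1.47 under stress, a difference of 1.99 (adjusted p = 0.0330). Arl9 was −0.01 without stress, so its interaction was 1.28 (adjusted p = 0.0482), and Slc36a1 likewise was −0.01 without stress, with an interaction of 1.19. Of the 27 bright probes 1 was called, 9130024F11Rik. With slide as a block no interaction was called (668 at an unadjusted p under 0.05), and the controls were all on slide 1.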

How the data were processed

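The medial prefrontal cortex arrays of OVX+stress and stress mice (n = 6 each) were compared. The deposited scanner files (their headers name Feature Extraction 10.7.3.1) hold for each spot a background-corrected processed intensity and flags. The authors' normalized table holds log2 values, which served as an alternative. Intensity was log2 transformed and set relative to the array's own 75th percentile, spots of 1 probe were averaged, and control spots were left out. Probes well above background on all 12 arrays were tested with limma 3.58.1 (R 4.3.3; lmFit, eBayes, Benjamini-Hochberg). The slide was read from the file headers.

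The genes named are the 12 with the largest called rise and the 12 with the largest called fall (1 probe a gene), the 2 with the smallest p in each list, and Esr1, Esr2, Gper1, Pgr, Nr3c1, Nr3c2, Fkbp5, Bdnf, Oxtr, Fos, Hbb-b1, Hba-a1, S100a8, S100a9, Lcn2 and Alas2. Of these, Hbb-b1 had no probe under that name on the array, and S100a8 was not tested, being well above background on only 5 OVX+stress arrays. In a list, the brightest tested probe stands for a gene. The bright genes, the lincRNA regions and further list members were picked after their values were seen. The members and lists were chosen with earlier results of these data known. Exact permutation over the 924 splits of 12 mice cannot give a two-sided p below 0.00216. Alternatives covered background correction, normalization, filters, moderation, slide, replicate number and each mouse left out. Probe positions are mm9, and the parts of genes they lie in were not annotated. Scripts were tested on simulated data. The number of arrays limits the precision. Genes are named by the RefSeq symbol of the probe's transcript, or by the array's own name where there was none.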

Additional observations from a re-analysis of the deposited data

Results flagged for a closer look

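By the limma interaction term, the effect of ovariectomy was called different between stressed and unstressed mice for 1249 of 28849 probes in the main fit. The genes of the text among them, with the effect under stress minus that without (log2), were HOTAIR at 1.99, 9230113P08Rik at 1.71, Terc at 1.30, Arl9 at 1.28, Gabre at 1.21, Slc36a1 at 1.19, Pkd1l3 at 1.16, Drd4 at 1.06, Sstr4 at 0.47, 9130024F11Rik at 0.44, Bgn at −0.58 and Glp2r at −0.87. None of these passed with slide as a block, and the controls shared a slide with 2 stress mice only. The 1249 calls also fell to 1 or 2 in many of the fits that left out 1 mouse, as given below.

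A single mouse stood far from the other 5 of its group, by Dixon's ratio, in 17 of 238 groups of 6 values, and chance alone marks about 1 in 20. OVX+stress mouse 6 gave 5 of these. It was highest for Bgn (−1.06, next −1.36), Col1a1 (−0.21, next −2.24), Rps15 (6.35) and LOC432842 (0.94) and lowest for Sstr4 (−1.94). OVX+stress mouse 5 was highest for S100a9 (2.10, next −1.69) and Lcn2 (1.03, next −1.75), both of the neutrophil list. OVX+stress mouse 3 was highest for Esr2 (2.17, next 1.43) and lowest for Commd5 (2.15), and mouse 1 was highest for Pgr (0.59) and Stfa2 (−1.59). Stress mouse 1 was lowest for Dlx1 (−0.84), Bpgm (1.75) and Atrip (1.51), and stress mouse 2 for Col1a1 (−2.40), Npas2 (−2.42) and Kcnt1 (1.34).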

How the results depend on the processing

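The 374 called probes became 188 with normexp background correction, 246 with an intensity trend and robust moderation, 596 when a probe had to be well above background in 1 group only, and 824 in a fit of 24 arrays. They fell to 0 with slide as a fixed block and to 5 with slide as a random block (correlation 0.247). Chosen after seeing the data, the 4 stress arrays of slide 2 alone gave 888 calls and a minimum signal of 100 gave 106. The share of calls that were higher, 44.9%, became 73.3% with slide 2 alone and 59.6% with 24 arrays. Leaving out 1 mouse gave 196 to 406 calls, the count moving by over 1.5 times without stress mouse 4 (210), 5 (225) or 6 (212) and without OVX+stress mouse 1 (196), 4 (206) or 5 (228). The replicate block (mice of equal number as a pair) gave 128 calls, 31.2% higher, and 386 for the interaction. The numbers did not pair the mice, as deviations of equal-numbered mice correlated between −0.03 and 0.27 and the best match was the own number only for 5 and 6. The 1249 interaction calls became 712 without moderation, 1 without a detection filter, and 0 with slide as a fixed or a random block. Leaving out 1 mouse gave 1 to 3831, the highest without stress mouse 1. It gave 1 without control mouse 1, 5 or 6 and without stress mouse 3, 4, 5 or 6. The same count came without OVX mouse 1, 2, 3 or 4 and without OVX+stress mouse 3, and 2 without OVX+stress mouse 1.

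With slide as a fixed block 15 called genes of the text turned in sign: Gm10325 to −0.058, Arl9 to −0.082, Olfr103 to −0.39, Olfr1143 to −0.0095, Terc to −0.020, Lasp1 to 0.45, Trpm8 to 0.29, Olfr704 to 0.073, Fev to 0.39, Olfr1564 to 0.35, Robo3 to 0.59, Olfr141 to 0.57, Mc5r to 0.18, A430093F15Rik to 0.10 and Ptchd4 to 0.10. Of the genes named by rule but not called, the block turned Sstr4 to −0.021, Gabrr1 to 0.19, Drd2 to −0.28, Homer3 to 0.056, Ppp1r3c to 0.017, Emcn to −0.043, Lhb to 0.039, Esr1 to −0.066, Fkbp5 to 0.17 and Hba-a1 to 0.93. No other setting turned a called gene of the text. The cause was not tested. Low signal over background limits the dim probes, and 6 mice a group limit all others.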

Other observations

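Genes of the neutrophil list set 1 animal apart. In the mPFC of OVX+stress mouse 5, S100a9, a calcium-binding protein of neutrophil granules, read 2.10 and Lcn2, an iron-scavenging granule protein, read 1.03, while the other 11 mice lay at or below −1.41 for both. On the blood arrays, the OVX+stress sample numbered 5 read highest of the 12. Its S100a9 was 11.17, against 8.00 to 8.66 in the other OVX+stress samples and at most 9.42 in stress samples. Its Lcn2 was 6.96, against 2.60 to 3.52 and at most 4.16. The labels do not say that equal numbers in blood and mPFC name the same mouse. The mean level of the 10 tested genes of the neutrophil list in the mPFC was 0.14 in OVX+stress mouse 5 and at most −0.50 in the other 11 mice, and none was called. The list had 26 genes on the array. Of those tested, Itgam is also a microglia marker and Lcn2 is also in the glucocorticoid list, so this mean is not specific to neutrophils. The hemoglobin gene Hba-a1 lay at 4.02 to 5.08 in OVX+stress mice and at 4.14 to 5.25 in stress mice (−0.04 ± 0.21), and its difference with slide as a block was 0.93 ± 0.49.

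Of the erythroid list, 6 of 13 tested genes were higher with a median of −0.0023, while with slide as a block 11 of 13 were higher with a median of 0.31. The slides in OVX mice differed by −0.45 for this list. Alas2, the first enzyme of heme synthesis in red cell precursors, differed by 0.07 ± 0.20, or by 0.92 ± 0.52 with the block. Nuclear genes of oxidative phosphorylation were higher in 63 of 76, with a median of 0.04 (0.02 with slide as a block). Clock genes were higher in 14 of 25, and cholesterol synthesis and uptake genes in 24 of 38, with medians of 0.04 and 0.02.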
